A study of Mus musculus with 16 samples.

Results

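The genes described are those of the T cell receptor (TCR) complex and its first signalling step, measured as mRNA in mouse CD4+ T cells. The list held 9 genes, and members were taken as the array features whose annotated gene symbol was Cd3d, Cd3e, Cd3g, Cd247, Cd4, Lck, Zap70, Lat or Lcp2. Of these, 8 were found by symbol, each as 1 feature, among 16475 genes tested, of which 15780 carried a symbol. Lck was not analysed here.

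Lymph node and spleen cells were taken from C57BL/6 mice that carry a Foxp3-GFP reporter knock-in, and this allele was shared by every group. CD4+ cells were sorted into GFP-positive (Foxp3+, the regulatory subset) and GFP-negative (Foxp3-) cells, and were either taken directly ex vivo or cultured for 36 h on plate-bound antibodies against CD3 and CD28 (5 µg/ml) with recombinant human IL-2 (100 U/ml). Buffers and media for the ex vivo cells contained cycloheximide (100 µg/ml), which holds ribosomes on mRNA, and by the methods activated cultures received the same dose as they ended. Each ex vivo sample pooled RNA from more than 1 experiment. From each of the 4 cell populations, cytosolic mRNA and polysome-associated mRNA, the mRNA that carries several ribosomes, were hybridised to 2 arrays each. This gave 8 groups and 16 arrays, numbered 1 to 16 as in the sample titles. The arrays fall into 3 series by the raw file names in the labels: all ex vivo arrays, the activated Foxp3- arrays and the activated Foxp3+ arrays. State and array series therefore cannot be told apart, and neither can subset and array series among activated cells, whereas both RNA fractions of a population lie in the same series. Both subsets were selected on CD4 protein, and the activating antibody bound the CD3 part of the receptor.

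The TCR recognises antigen through a variable pair of chains that cannot signal by themselves. Signals pass through the invariant CD3 chains, delta, epsilon and gamma, and through the zeta chain encoded by Cd247, whose cytoplasmic motifs are phosphorylated by a Src family kinase brought in by the coreceptor CD4. The kinase ZAP-70 docks on these motifs and phosphorylates the membrane adaptor LAT and the cytosolic adaptor SLP-76 (encoded by Lcp2), on which the calcium and Ras pathways assemble. Engaged receptors are internalised, and new complexes reach the surface only when all chains are available.

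Values are log2 intensities, and differences are log2 differences with the standard error (SE) of a limma model fitted to all 16 arrays with 1 mean per group. A gene was called when its Benjamini-Hochberg adjusted p over all 16475 genes was under 0.05 for activation, RNA fraction and interactions, under 0.15 for subsets and for differential translation in activated cells, and under 0.3 for differential translation ex vivo. Probe sets bind with different strength, so levels are compared within a gene only. Array medians lay between 4.85 and 5.07. Foxp3 itself ranged from 9.42 to 10.76 on Foxp3+ arrays and from 3.74 to 6.85 on Foxp3- arrays, so the arrays followed their sort labels. The mean of 4 T cell markers (Cd2, Cd5, Cd28 and Thy1) was 10.10 to 11.41 on every array. Within that mean, Cd5 was called lower after activation in all 4 comparisons and Cd28 higher in Foxp3+ cytosolic mRNA. The list means of the measured CD8 T cell, B cell, myeloid, NK cell, erythroid and stromal markers lay between 3.45 and 5.37. Some of these lists moved with state: the B cell mean was 4.77 to 5.35 on ex vivo and 3.58 to 4.86 on activated arrays, the myeloid mean 4.82 to 5.37 and 4.06 to 4.85, and the NK cell mean 4.54 to 5.32 and 3.70 to 4.59. The stromal and endothelial mean was instead higher on activated arrays, at 3.98 to 5.02, than on ex vivo arrays, at 3.65 to 3.85. Of the 24 markers of other cell types measured, 5, 6, 3 and 6 were called lower and 3, 0, 4 and 3 higher after activation in the Foxp3- cytosolic, Foxp3- polysome, Foxp3+ cytosolic and Foxp3+ polysome comparisons. Single markers were well above the array medians ex vivo. Cd79b, a B cell receptor chain, had group means of 8.05 to 8.99 ex vivo and of 3.85 to 6.36 after activation, and was called lower in all 4 comparisons, whereas the B cell markers Ms4a1 and Pax5 were under the array medians in every group. Prf1, the perforin of cytotoxic cells, went from 9.03 and 9.90 to 5.26 and 5.43 in Foxp3- cells, and Tyrobp, a myeloid and NK cell adaptor, from 7.59 and 7.17 to 4.82 in both fractions. Other markers went the other way: Klrb1c of the NK cell list and Col1a1 of the stromal list were called higher in every comparison but that of Foxp3- polysomes. The part of other cells in the activation differences was not tested. The difference between the 3′ and 5′ actin control probe sets, a measure of transcript completeness, was 4.16 to 4.64 on ex vivo Foxp3+ arrays, 0.82 to 1.38 on ex vivo Foxp3- arrays and −0.59 to −0.20 on activated arrays. It thus moved with state and with the ex vivo subset, and its part in the differences below was not tested. Duplicates were farther apart after activation: the median gap between duplicates over all genes was 0.17 to 0.23 in the ex vivo groups and 0.34 to 0.47 in the activated groups.

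**Figure D1:**
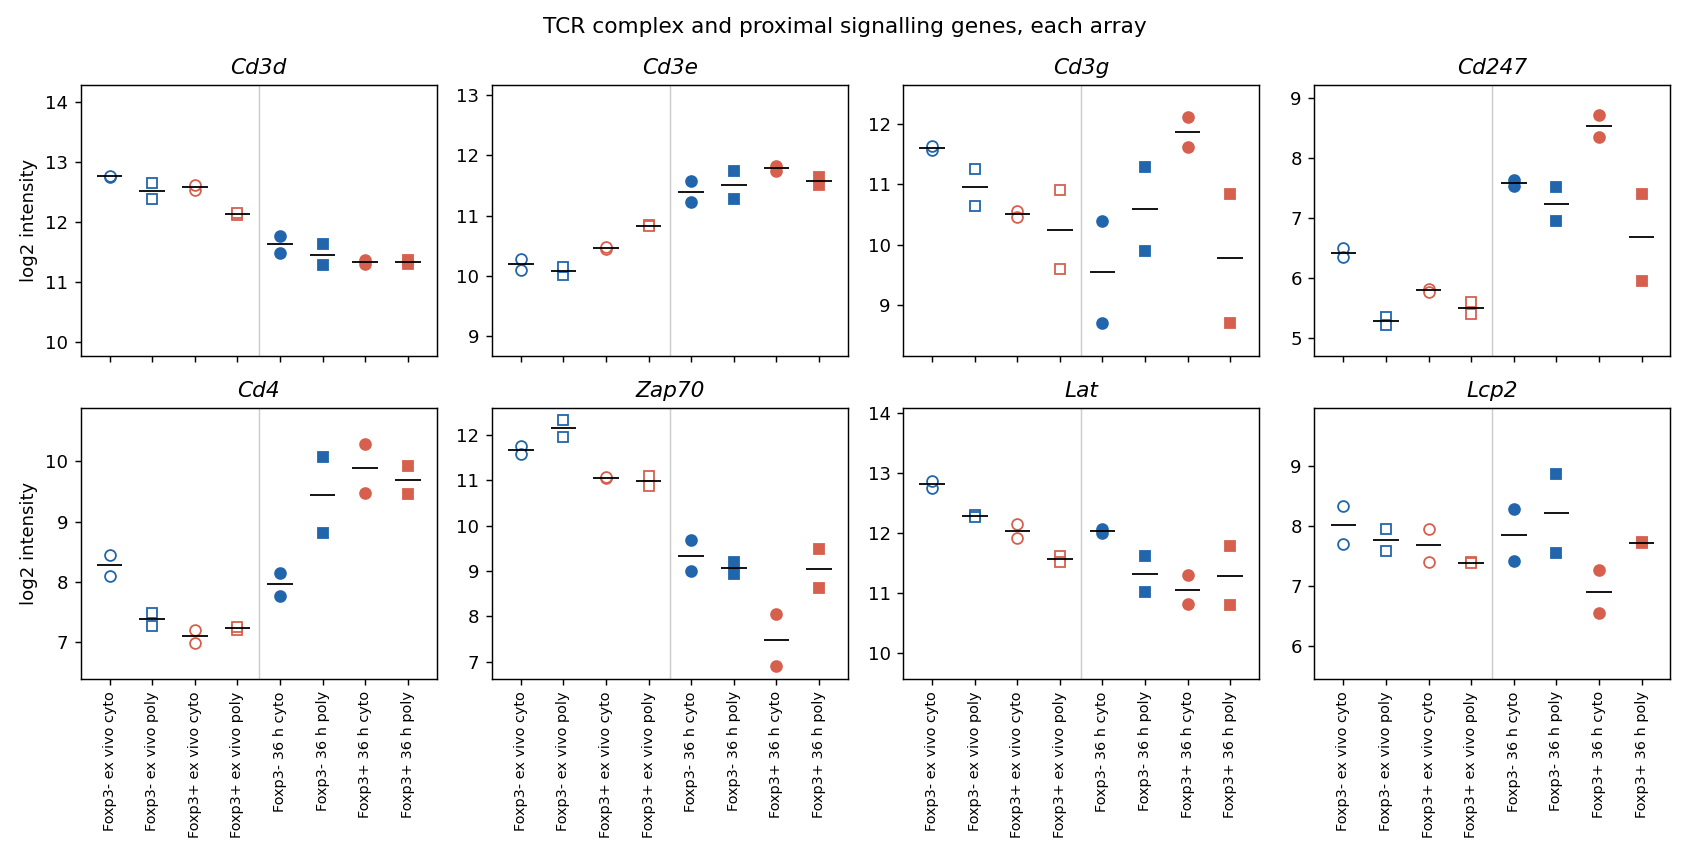
Log2 intensity (y axis) of the 8 genes on each of the 16 arrays, by group (x axis; cyto, cytosolic; poly, polysome-associated; 36 h, activated). Each point is 1 array, the horizontal bar is the mean of 2 arrays, blue is Foxp3- and orange is Foxp3+. Cd3d and Zap70 were lower, and Cd3e higher, on all 8 activated arrays than on all 8 ex vivo arrays, while the Cd3g duplicates lay up to 2.15 apart. The share of all genes with such a separation by state was not counted.

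After activation the mRNAs of the CD3 delta and epsilon chains, whose genes are close neighbours, went in opposite directions: Cd3d fell and Cd3e rose in both subsets and both RNA fractions. CD3 delta and CD3 epsilon bind each other as a dimer in the receptor. In RefSeq, Cd3g, Cd3d and Cd3e are consecutive genes on mouse chromosome 9. Their promoter windows are shown because Cd3d and Cd3e differed in response. Each window holds 250 bases before the start and 50 after it (RefSeq on GRCm38.p6, 5′ to 3′ on the strand of the gene). Capitals mark E-boxes (CANNTG) and ETS cores (GGAA, or TTCC where it lies on the other strand), and the marked motifs may overlap.
Cd3d, chr9:44981536-44981835, plus strand: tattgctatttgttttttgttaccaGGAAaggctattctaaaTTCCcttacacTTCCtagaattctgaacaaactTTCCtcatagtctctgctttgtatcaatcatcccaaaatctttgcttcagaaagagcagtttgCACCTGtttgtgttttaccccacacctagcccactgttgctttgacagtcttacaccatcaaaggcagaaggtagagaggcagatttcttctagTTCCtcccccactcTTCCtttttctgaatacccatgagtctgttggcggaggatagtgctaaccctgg
Cd3e, chr9:45009562-45009861, minus strand: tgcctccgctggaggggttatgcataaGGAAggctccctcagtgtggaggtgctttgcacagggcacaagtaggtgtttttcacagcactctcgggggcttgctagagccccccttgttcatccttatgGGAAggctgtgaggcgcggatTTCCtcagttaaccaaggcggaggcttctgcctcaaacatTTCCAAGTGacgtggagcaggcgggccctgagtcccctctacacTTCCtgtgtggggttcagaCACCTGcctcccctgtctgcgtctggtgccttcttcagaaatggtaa
Cd3g, chr9:44980382-44980681, minus strand: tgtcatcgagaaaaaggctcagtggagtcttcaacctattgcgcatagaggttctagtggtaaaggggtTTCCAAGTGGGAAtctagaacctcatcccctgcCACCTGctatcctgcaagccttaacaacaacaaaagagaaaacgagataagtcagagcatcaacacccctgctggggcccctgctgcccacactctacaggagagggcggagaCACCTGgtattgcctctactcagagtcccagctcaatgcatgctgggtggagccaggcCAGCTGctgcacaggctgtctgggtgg
The Cd3d window held 1 E-box and 6 ETS cores, the Cd3e window 2 and 5, and the Cd3g window 4 and 2. Such matches are common: 72.3% of 32851 promoter windows of this length held an E-box and 96.0% an ETS core on either strand. Of the 8 genes, 7 had a promoter entry.

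Cd3d was at 12.75 and 12.77 in ex vivo Foxp3- cytosolic mRNA and at 12.64 and 12.39 in the polysome fraction. The ex vivo Foxp3+ values were 12.53 and 12.62 in cytosolic and 12.11 and 12.15 in polysome-associated mRNA. After activation the values were 11.49, 11.76 (cytosolic), 11.63 and 11.28 (polysome) in Foxp3- cells, and 11.30, 11.37 (cytosolic), 11.37 and 11.29 (polysome) in Foxp3+ cells. The highest activated array, 11.76, was thus below the lowest ex vivo array, 12.11. The activated minus ex vivo difference of Cd3d was −1.14 (SE 0.20, adjusted p = 0.00178) in Foxp3- cytosolic mRNA, a 2.20-fold change, and −1.24 (adjusted p = 0.00103) in Foxp3+ cytosolic mRNA. In polysome-associated mRNA the differences were −1.06 (adjusted p = 0.0019) in Foxp3- and −0.80 (adjusted p = 0.0113) in Foxp3+ cells. The last of these was no longer called without array 2 (adjusted p = 0.0548) or array 6 (adjusted p = 0.0628), or after cyclic loess normalisation, which gave −0.42 there and −0.62 and −0.69 in the Foxp3- polysome and Foxp3+ cytosolic comparisons.

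Cd3e was at 10.10 and 10.28 in ex vivo Foxp3- cytosolic mRNA and at 10.02 and 10.14 in the polysome fraction. In ex vivo Foxp3+ cells it was at 10.45 and 10.47, and at 10.84 and 10.82 in polysomes. Activated Foxp3- cells gave 11.22, 11.57 (cytosolic), 11.73 and 11.28 (polysome), and activated Foxp3+ cells 11.83, 11.74 (cytosolic), 11.64 and 11.51 (polysome). Here the lowest activated array, 11.22, was above the highest ex vivo array, 10.84. Cd3e rose by 1.21 (SE 0.21, adjusted p = 0.00186) in Foxp3- and 1.33 (adjusted p = 0.00105) in Foxp3+ cytosolic mRNA, and by 1.43 (adjusted p = 0.000442) and 0.74 (adjusted p = 0.0218) in polysome-associated mRNA. The Foxp3+ polysome rise lost its call without array 2 (adjusted p = 0.0898), array 6 (0.0949) or array 14 (0.0782), and was 1.14 after cyclic loess normalisation. Relative to Cd3d on the same arrays, Cd3e gained 2.34 and 2.57 in Foxp3- and Foxp3+ cytosolic mRNA, and 2.49 and 1.54 in polysome-associated mRNA. Over the 16 arrays the values of both genes had a Pearson correlation of −0.93, which is given as a description, since the arrays fall into ex vivo and activated clusters.

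Cd3g, which encodes the gamma chain that also pairs with CD3 epsilon, was measured less precisely than its neighbours. Its response was not tested against theirs. It was at 11.58 and 11.63 in ex vivo Foxp3- cytosolic mRNA, at 11.25 and 10.65 in Foxp3- polysomes, at 10.55 and 10.46 in Foxp3+ cytosolic mRNA and at 10.91 and 9.59 in Foxp3+ polysomes. After activation its duplicates were far apart, at 8.69 and 10.40 (cytosolic) and 9.90 and 11.29 (polysome) in Foxp3- cells, and at 11.63 and 12.12 (cytosolic) and 8.70 and 10.85 (polysome) in Foxp3+ cells. The groups overlapped in both polysome comparisons. None of its activation differences was called in the fit of all arrays: −2.06 (SE 0.75, adjusted p = 0.067) and 1.37 (adjusted p = 0.192) in Foxp3- and Foxp3+ cytosolic mRNA, and −0.35 and −0.48 in the polysome fractions. The first was −1.21 without array 9 and −2.92 without array 11, and was called in 5 of 21 alternative settings, among them the fit without array 11 (adjusted p = 0.0398) and the fit with array weights (0.031).

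Cd247, the zeta chain that carries most of the signalling motifs of the receptor, was higher after activation in all 4 comparisons. Ex vivo it was at 6.50 and 6.35 (cytosolic) and 5.36 and 5.22 (polysome) in Foxp3- cells, and at 5.82 and 5.78 (cytosolic) and 5.40 and 5.61 (polysome) in Foxp3+ cells, close to the array medians, where array differences tend to understate change. Activated Foxp3- cells gave 7.63 and 7.53 in cytosolic and 6.96 and 7.52 in polysome-associated mRNA, and activated Foxp3+ cells 8.71 and 8.35 in cytosolic and 7.41 and 5.95 in polysome-associated mRNA. Within each subset and fraction the duplicates did not overlap between states. Cd247 rose by 2.73 (SE 0.39, adjusted p = 0.000541), a 6.63-fold change, in Foxp3+ cytosolic mRNA and by 1.95 (adjusted p = 0.00288) in Foxp3- polysomes, and these 2 calls stood under every alternative setting run. The rises of 1.15 (adjusted p = 0.048) in Foxp3- cytosolic mRNA and 1.18 (adjusted p = 0.041) in Foxp3+ polysomes were close to the threshold. The first lost its call without any 1 of the ex vivo arrays or of arrays 9 and 11 (adjusted p 0.0656 to 0.187), and the second without any 1 of the ex vivo arrays or of arrays 9, 11 and 14 (0.0502 to 0.275), being 0.45 without array 14 and 1.90 without array 16.

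Cd4, the coreceptor that binds MHC class II and the marker of the sort, rose in 3 of the 4 comparisons. In ex vivo cells it was at 8.44 and 8.10 (cytosolic) and 7.27 and 7.49 (polysome) in Foxp3- cells, and at 7.20 and 6.98 (cytosolic) and 7.20 and 7.25 (polysome) in Foxp3+ cells. Activated Foxp3- cells had 8.15 and 7.76 in cytosolic mRNA but 10.07 and 8.80 in polysomes, and activated Foxp3+ cells had 10.29 and 9.47 in cytosolic mRNA and 9.45 and 9.92 in polysomes. Foxp3- cytosolic mRNA alone overlapped between states. Cd4 rose by 2.80 (SE 0.40, adjusted p = 0.000554), 6.94-fold, in Foxp3+ cytosolic mRNA, by 2.46 (adjusted p = 0.00114) in Foxp3+ polysomes and by 2.06 (adjusted p = 0.00247) in Foxp3- polysomes. In Foxp3- cytosolic mRNA the difference was −0.32 (adjusted p = 0.595).

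Zap70, the kinase that binds the phosphorylated chains, showed the largest activation differences among the 8 genes in 3 of the 4 comparisons. Its ex vivo values were 11.75 and 11.57 (cytosolic) and 11.96 and 12.32 (polysome) in Foxp3- cells, and 11.04 and 11.08 (cytosolic) and 11.10 and 10.88 (polysome) in Foxp3+ cells. After activation they were 9.68 and 8.99 (cytosolic) and 9.19 and 8.93 (polysome) in Foxp3- cells, and 6.90 and 8.06 (cytosolic) and 8.61 and 9.48 (polysome) in Foxp3+ cells. Every activated array was therefore below every ex vivo array. The differences of Zap70 were −2.32 (SE 0.40, adjusted p = 0.00168) in Foxp3- cytosolic mRNA, −3.08 (adjusted p = 0.000184) in Foxp3- polysomes, −3.58 (adjusted p = 0.000122), 11.96-fold, in Foxp3+ cytosolic mRNA and −1.94 (adjusted p = 0.00439) in Foxp3+ polysomes. All 4 calls stood under every alternative setting run.

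The adaptors changed less. Lat, the membrane scaffold, was at 12.76 and 12.86 (cytosolic) and 12.30 and 12.26 (polysome) in ex vivo Foxp3- cells and at 11.92 and 12.15 (cytosolic) and 11.61 and 11.53 (polysome) in ex vivo Foxp3+ cells. Activated Foxp3- cells gave 12.07 and 11.995 (cytosolic) and 11.02 and 11.62 (polysome), and activated Foxp3+ cells 10.82 and 11.30 (cytosolic) and 10.80 and 11.78 (polysome). The activated Foxp3+ polysome arrays overlapped their ex vivo counterparts, and the other 3 pairs of groups did not overlap. Lat was called lower in Foxp3- polysomes (−0.96, SE 0.32, adjusted p = 0.04) and, at −0.98 (adjusted p = 0.037), in Foxp3+ cytosolic mRNA, and was not called at −0.78 (adjusted p = 0.0957) in Foxp3- cytosolic mRNA and −0.28 in Foxp3+ polysomes. Its calls were lost without any 1 ex vivo array, without array 10 (Foxp3- polysomes, adjusted p = 0.236) or array 13 (Foxp3+ cytosolic, 0.177), and after cyclic loess normalisation, which gave −0.51 and −0.42. Lcp2, the SLP-76 adaptor, ranged from 6.55 to 8.87 over the arrays with overlapping groups in both Foxp3- comparisons, and none of its activation differences (−0.77 to 0.45, SE 0.45) was called.

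In Foxp3- cytosolic mRNA, 2 of the 8 genes were called higher and 2 lower after activation, against 13.6% and 12.5% of all genes tested. In Foxp3- polysomes 3 were higher and 3 lower (all genes, 14.1% and 16.4%), in Foxp3+ cytosolic mRNA 3 and 3 (16.9% and 14.4%), and in Foxp3+ polysomes 3 and 2 (14.7% and 14.6%). The median difference of the 8 genes was −0.55, 0.05, 0.28 and 0.03 in these comparisons, beside 0.11, 0.02, 0.13 and 0.09 over all genes. Cd3e and Cd247 were called higher and Cd3d and Zap70 lower in all 4, which held for 4.5% and 5.44% of all genes. For the separation of arrays by state given for single genes above, the share over all genes was not counted. With bulk RNA, a change in the share of cells that express a gene and a change per cell cannot be told apart.

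**Figure D2:**
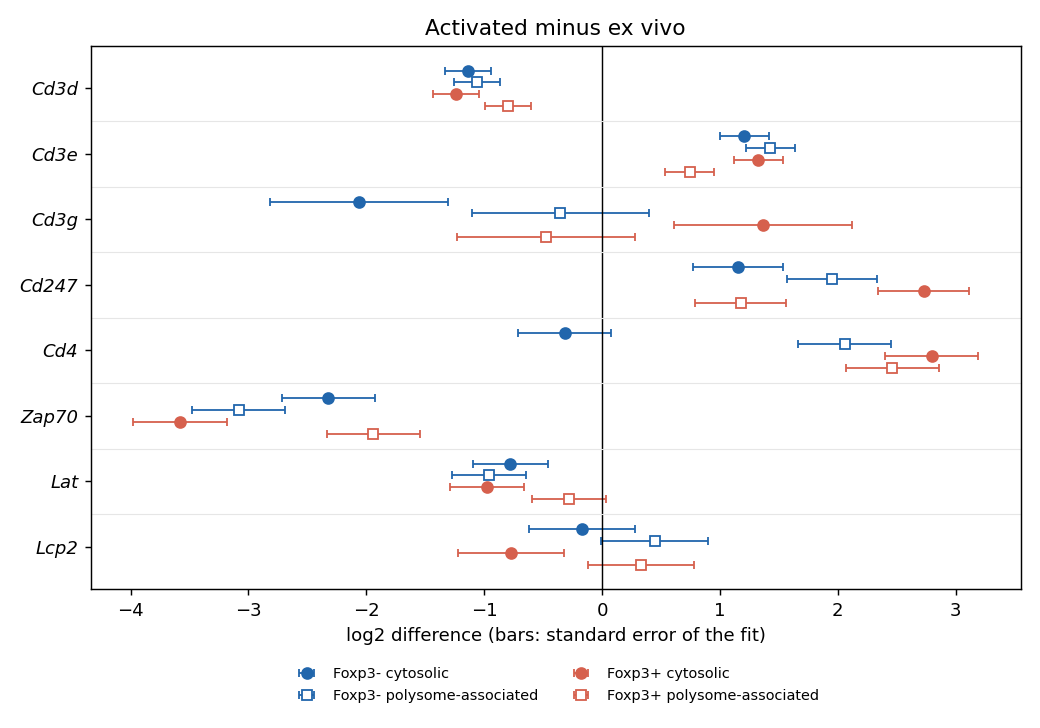
Activated minus ex vivo log2 difference (x axis) of each of the 8 genes (y axis) in 4 comparisons; points are differences of the means of 2 arrays and bars are the SE of the fit. Cd3d and Zap70 lie to the left of 0 and Cd3e and Cd247 to the right in all 4 comparisons, while Cd4 is near 0 only in Foxp3- cytosolic mRNA (−0.32).

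To ask whether the subsets differed, Foxp3+ was set against Foxp3- cells in each state and fraction. Directly ex vivo few differences were called. In cytosolic mRNA limma called 0 of the 8 genes, against 2.06% of all genes higher and 2.58% lower, and 2 genes had an unadjusted p under 0.05, Cd4 (−1.18, SE 0.40, adjusted p = 0.204) and Lat (−0.77, adjusted p = 0.337). In polysomes Cd3e alone was called, higher by 0.75 in Foxp3+ cells (SE 0.21, adjusted p = 0.125; all genes, 1.62% higher and 2.25% lower), and the call was lost without any 1 of the ex vivo arrays (adjusted p 0.192 to 0.634). Zap70 (−1.15, adjusted p = 0.229) was not called there. When the fit held only the groups compared, whose duplicates were closer, 5 genes were called in cytosolic mRNA and 3 in polysomes, but calls over all genes went up as well, from 4.64% to 31.5% and from 3.87% to 20.9%. The ex vivo subsets are those between which the actin control difference was 0.82 to 1.38 and 4.16 to 4.64, and its part was not tested.

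After activation 5 of the 8 genes were called between the subsets in cytosolic mRNA and none in polysomes. Whether the subset difference itself differed between fractions is the differential translation test given further on, which called 1 of these genes. In activated Foxp3+ cells, cytosolic Cd4 (1.93, SE 0.40, adjusted p = 0.0124), Cd3g (2.33, SE 0.75, adjusted p = 0.0699) and Cd247 (0.95, SE 0.39, adjusted p = 0.132) were called higher, and Zap70 (−1.86, SE 0.40, adjusted p = 0.0143) and Lat (−0.97, SE 0.32, adjusted p = 0.0705) lower, against 13.8% of all genes higher and 12.2% lower. For all 8 genes, the uncalled Cd3d, Cd3e and Lcp2 among them, both Foxp3+ arrays lay on the same side of both Foxp3- arrays. This separation therefore does not set the called genes apart, and its share over all genes was not counted. The 3.81-fold higher Cd4 came with 3.63-fold lower Zap70. In polysome-associated mRNA of the same cells limma called 0 of 8 genes, and 0 at an unadjusted p under 0.05, although 18.7% of all genes were called higher and 13.7% lower. There Zap70 differed by −0.01 (SE 0.40), Lat by −0.03 (SE 0.32), Cd3e by 0.07 (SE 0.21) and Cd4 by 0.25 (SE 0.40). All 8 genes overlapped between the subsets in this fraction, and the share of all genes that did so was not counted either. Single arrays mattered there: Cd247 was −1.29 without array 14 (adjusted p = 0.0135), Cd3g −1.90 without array 16 (0.116) and Lcp2 −1.15 without array 10 (0.127), all past the threshold. No cytosolic call stood when the spread was taken from the 4 activated cytosolic arrays alone (adjusted p 0.166 for Cd4 and 0.238 for Zap70), a setting under which calls over all genes went from 26.0% to 2.97%. Cd247 was no longer called without any 1 of 12 arrays, those other than 10, 12, 14 and 16 (adjusted p 0.162 to 0.34), Cd3g without array 9 (1.47, adjusted p = 0.344) or 15 (0.194), and Lat without array 9 (0.208) or 13 (0.244).

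**Figure D3:**
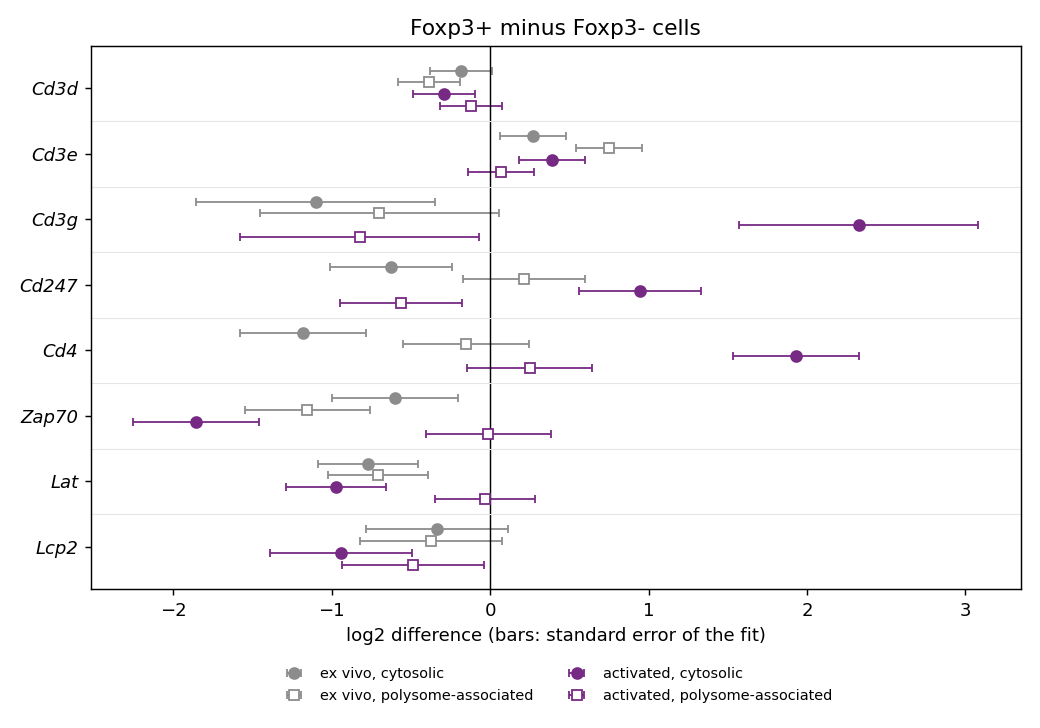
Foxp3+ minus Foxp3- log2 difference (x axis) of each gene (y axis), ex vivo (grey) and activated (purple), in cytosolic (filled circles) and polysome-associated mRNA (open squares); bars are the SE of the fit. In activated cells the cytosolic points spread from −1.86 (Zap70) to 2.33 (Cd3g), and the polysome points from −0.82 to 0.25.

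The difference between the subsets in their activation response was tested as an interaction. In cytosolic mRNA only Cd4 was called among the 8 genes, its response being 3.11 higher in Foxp3+ than in Foxp3- cells (SE 0.56, adjusted p = 0.0208), with 2.07% of all genes called. The call was lost without array 1 (adjusted p = 0.0843), 3 (0.102), 5 (0.0865), 7 (0.0678) or 11 (0.0537). Cd3g had the larger point difference, 3.43, but with an SE of 1.07 (adjusted p = 0.136), and Cd247 had 1.58 (adjusted p = 0.179). In polysomes limma called 0 of the 8 (2.58% of all genes), 1 of them, Cd3e, having an unadjusted p under 0.05 (−0.69, SE 0.30, adjusted p = 0.273).

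Polysome-associated and cytosolic mRNA were then compared within each population, both fractions being from the same array series. Ex vivo no gene of the 8 was called in Foxp3- cells (2 with an unadjusted p under 0.05, Cd247 at −1.14 and Cd4 at −0.89) or in Foxp3+ cells (1, Cd3d at −0.44), where 0.0607% and 0.0364% of all genes were called. In activated Foxp3- cells limma called 0 of 8 (3.88% of all genes), and 2 had an unadjusted p under 0.05, Cd4 and Lat (−0.71). Cd4 was 1.48 higher in polysomes there (SE 0.40, adjusted p = 0.0676), which was 0.85 without array 10 but was called without array 12 (2.12, adjusted p = 0.0176), without array 13 or 15 (0.0461) and after cyclic loess normalisation (1.66, 0.0383). In activated Foxp3+ cells (4.66% of all genes called) Cd247 was lower in polysomes than in cytosolic mRNA (−1.85, SE 0.39, adjusted p = 0.0226) and Zap70 was higher (1.57, SE 0.40, adjusted p = 0.0495). Cd3g also had an unadjusted p under 0.05 but was not called (−2.10, SE 0.75, adjusted p = 0.143), and was −3.17 without array 16. The Cd247 call was lost without array 13 (adjusted p = 0.0662), and the value was −1.12 without array 16. The Zap70 call was lost without any 1 of the ex vivo arrays or of arrays 10, 12, 13 and 16 (adjusted p 0.0605 to 0.173), and the value was 0.99 without array 13. With the spread of these 4 arrays alone neither was called, and neither was any other gene.

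Differential translation, the polysome minus cytosolic difference of Foxp3+ cells less that of Foxp3- cells, was the comparison the study was designed around. Ex vivo limma called 0 of the 8 genes, and 0% of all genes, and none of the 8 had an unadjusted p under 0.05. The analysis of covariance, which corrects polysome for cytosolic values, also called 0 of the 8, with 0.388% of all genes called. For Cd3d (−1.15), Cd3e (−0.78) and Cd247 (2.89) its slope lay outside −0.5 to 1.5, the range the methods accept. In activated cells 1 of the 8 was called, Zap70, at 1.85 (SE 0.56, adjusted p = 0.122), with 7.48% of all genes called. Behind this value, Zap70 differed between fractions by 1.57 in Foxp3+ and by −0.28 in Foxp3- cells. The analysis of covariance gave 1.10 (adjusted p = 0.28) for Zap70 and called 18.1% of all genes, and the call was lost without any 1 of 13 arrays, those other than 11, 14 and 15 (adjusted p 0.159 to 0.248). Cd4 (−1.68, adjusted p = 0.156), Cd3g (−3.15, adjusted p = 0.163) and Cd247 (−1.51, adjusted p = 0.192) had the opposite sign and were not called. These were near the threshold too: Cd3g and Cd4 were each called in 5 of 22 alternative settings (Cd3g −4.23, adjusted p = 0.0433, without array 16; Cd4 −2.32, 0.0374, without array 12) and Cd247 in 1 (−2.24, 0.0102, without array 14), while Zap70 kept its call in 6. For Cd4 the analysis of covariance gave 0.20 (adjusted p = 0.94). The change of the fraction difference with activation was called for 0 of the 8 genes in either subset (all genes, 0.158% in Foxp3- and 0.279% in Foxp3+), with 1 and 2 genes at an unadjusted p under 0.05. The largest in Foxp3- cells was Cd4 (2.38, SE 0.56, adjusted p = 0.143), and in Foxp3+ cells Cd247 had −1.56 (adjusted p = 0.278) and Zap70 1.64 (adjusted p = 0.264).

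The wider pathway was described from a list of 66 other genes, of which 57 were found by symbol and the rest were not analysed here. Calls of these genes were not followed under the alternative settings. After activation 23 of the 57 were lower and 7 higher in Foxp3- cytosolic mRNA, where 12.5% of all genes were lower and 13.6% higher. In Foxp3- polysomes 17 were lower and 9 higher (all genes, 16.4% and 14.1%), in Foxp3+ cytosolic mRNA 21 and 3 (14.4% and 16.9%), and in Foxp3+ polysomes 17 and 5 (14.6% and 14.7%). The median differences were −0.86, −0.39, −0.59 and −0.44, beside 0.11, 0.02, 0.13 and 0.09 over all genes. Called lower in all 4 comparisons were 9 of the 57 genes, or 15.8%, against 5.44% of all genes, and 1 was called higher in all 4, Nfatc2.

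**Figure D4:**
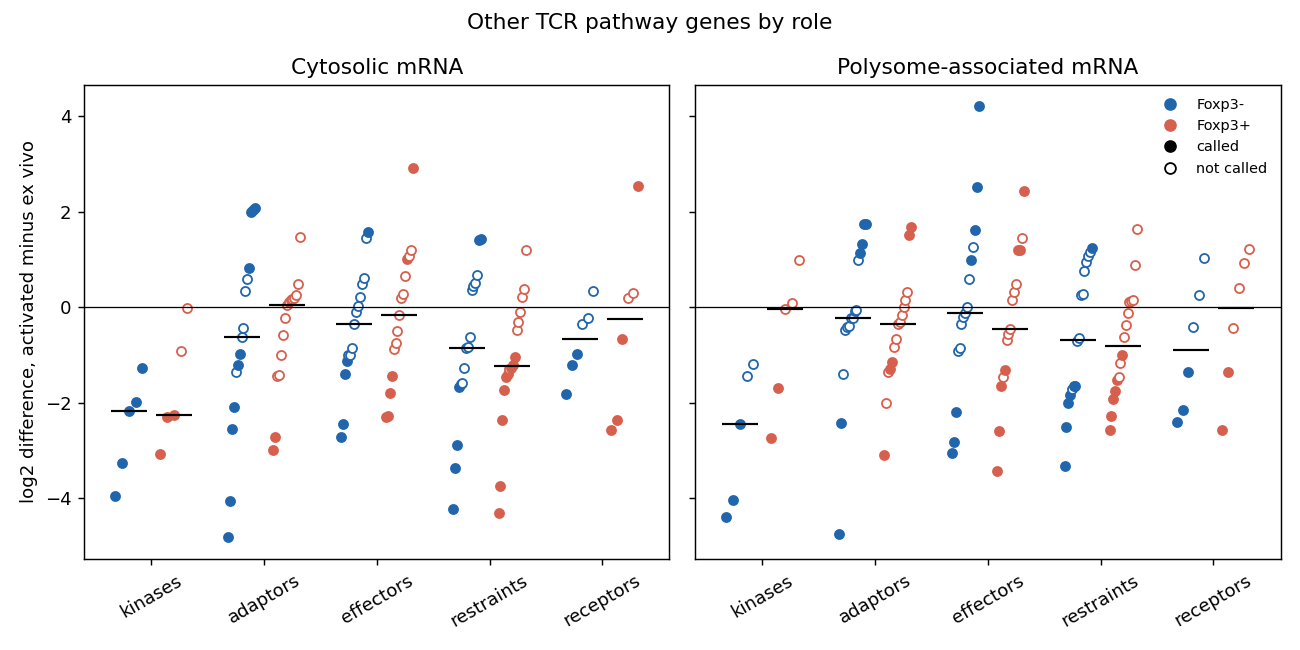
Activated minus ex vivo log2 difference (y axis) of the 57 other pathway genes by role (x axis), in cytosolic (left) and polysome-associated mRNA (right). Each point is 1 gene, blue for Foxp3- and orange for Foxp3+ cells, filled where called, and black bars are medians; in Foxp3- cells all 5 kinases were lower in cytosolic mRNA.

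Among the 5 other kinases, Csk, which phosphorylates the inhibitory tail of Src family kinases, was lower in all 4 comparisons, with differences of −2.18 and −2.45 in Foxp3- cytosolic and polysome-associated mRNA and of −2.25 and −1.68 in Foxp3+ cells. Tec and Txk, members of the Tec family that activate phospholipase C, were lower in Foxp3- cells (Tec −3.27 and −4.03, Txk −3.95 and −4.40) and were not called in Foxp3+ cells. The responses of both differed between the subsets by the interaction test, by 2.35 (adjusted p = 0.044) and 3.94 (adjusted p = 0.0244) in cytosolic mRNA and by 5.03 (adjusted p = 0.00179) and 4.37 (adjusted p = 0.0138) in polysomes. Differences between the ex vivo subsets enter this test. Ex vivo, 2 of the 5 kinases were called lower in Foxp3+ than in Foxp3- cytosolic mRNA, and 3 in polysomes (all genes, 2.58% and 2.25%). Ex vivo subset differences of the 5 ranged from −2.21 to 0.01 in cytosolic mRNA and from −2.53 to −0.36 in polysomes. After activation they ranged from −2.02 to 1.74 and from −1.93 to 3.71. A lower ex vivo level in Foxp3+ cells can thus make up much of such an interaction, and its part was not tested. Fyn, a Src family kinase, fell by 3.08 in Foxp3+ cytosolic mRNA and cytosolic Fyn was lower in activated Foxp3+ than Foxp3- cells (−2.02, adjusted p = 0.0134).

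Of the 15 adaptors, Skap1, which links the receptor to integrin adhesion, was lower in all 4 comparisons (−4.05 and −2.42 in Foxp3- and −2.99 and −1.28 in Foxp3+ cells, cytosolic first). Sit1, a transmembrane adaptor that dampens signalling, was lower in Foxp3- cells (−4.82 and −4.76) and in Foxp3+ polysomes (−3.09). Sh3bp2 was higher in both Foxp3- fractions (2.00 and 1.15). Themis, a TCR signalling protein needed for selection in the thymus, was called higher in polysomes, by 1.32 in Foxp3- and 1.69 in Foxp3+ cells, and was not called in cytosolic mRNA.

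Among 15 effectors, Stim1 and Orai1, which act in store-operated calcium entry, were lower in all 4 comparisons, and genes outside the list were not examined. Stim1, the calcium sensor of the endoplasmic reticulum, had differences of −2.72, −2.82, −1.81 and −3.44 in the Foxp3- cytosolic, Foxp3- polysome, Foxp3+ cytosolic and Foxp3+ polysome comparisons. Orai1, the channel, had −1.13, −2.19, −2.29 and −1.65. Nfatc2, a transcription factor activated by calcineurin, was higher in the same order by 1.57, 0.99, 1.01 and 1.19. Ppp3r1, the regulatory subunit of calcineurin, was higher in Foxp3- polysomes (4.21) and in both Foxp3+ fractions (2.92 and 2.43).

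Of the 16 restraints of TCR signalling, 3 were called lower in all 4 comparisons, Ptpn6, Ubash3a and Sla2. Ptpn6, the phosphatase SHP-1, had differences of −1.60 and −1.64 in Foxp3- cytosolic and polysome-associated mRNA and of −4.31 and −1.76 in Foxp3+ cells. Ubash3a, which suppresses ZAP-70, had −2.88 and −2.50, and −3.75 and −2.27. Dgka, a kinase that removes diacylglycerol, was lower in Foxp3- and Foxp3+ cytosolic mRNA (−4.22 and −1.27). Ptpn6 also had the smallest adjusted p of the 57 genes for differential translation in activated cells (2.88, adjusted p = 0.00925). In this comparison calls over all genes went from 7.48% to 0% with the spread of the compared groups alone and to 0.765% with array weights. The subsets differed there by −3.95 (cytosolic) and −1.07 (polysome), Foxp3+ minus Foxp3-.

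Of the 6 surface receptors, Cd5 and Cd6, which set the threshold of TCR signalling, were lower in all 4 comparisons, Cd5 with differences of −1.82, −2.39, −2.36 and −2.56 and Cd6 with −1.21, −2.15, −2.57 and −1.36. Cd28, the receptor bound by the other activating antibody, was called in Foxp3+ cytosolic mRNA alone, where it was 2.55 higher (adjusted p = 0.00155). Between the activated subsets, 7 of the 57 genes were higher and 15 lower in Foxp3+ cytosolic mRNA (all genes, 13.8% and 12.2%), and 4 were higher and 18 lower in polysomes (18.7% and 13.7%), among the latter Bcl10 and Malt1 of the complex that activates NF-kB (polysome −1.27, adjusted p = 0.00874, and −2.54, adjusted p = 0.00795).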

How the data were processed

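RNA was amplified, labelled with biotin and hybridised to Affymetrix arrays. Per the labels and methods, the authors normalised the arrays by RMA with Entrez gene probe set definitions and deposited log2 intensities; their genome build was not given in the sources used here. The deposited values were used as they are. The 64 control probe sets among the 16539 features were dropped, and no low values were filtered; 0 value columns had no sample. Symbols came from the platform annotation, which gives none for 695 genes. The model was fitted with limma 3.58.1 (lmFit, eBayes) in R 4.3.3 over 16475 genes, with 8 residual degrees of freedom. A run of the model on simulated data gave each gene the same spread in every group, unlike these arrays, and is not used as support. The methods' anota with a random variance model was replaced by limma, with an anota-type analysis of covariance as an alternative that took consecutive array numbers as pairs. The translation thresholds and the 0.15 for activated subsets are those of the methods; 0.15 was also applied to the ex vivo subsets, for which the methods' wording leaves the threshold unclear. Array intensities carry no read depth; 2 arrays per group limit the precision. The methods call the duplicates biological.

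The members, the pathway list, the markers and the tests were chosen with earlier results of these data known. Named genes were the members, up to 3 called pathway genes per role and comparison by adjusted p, and the 5 genes most correlated with the CD3 and zeta profile. Alternatives were the spread of the compared groups alone, array weights, genes above the median mean, median centring, cyclic loess and leaving out each array.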

Additional observations from a re-analysis of the deposited data

Results flagged for a closer look

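Cd4 differed between the subsets in its activation response. In cytosolic mRNA it rose by 2.80 in Foxp3+ cells and differed by −0.32 in Foxp3- cells, and the test of the difference gave 3.11 (SE 0.56, limma adjusted p = 0.0208). Both activated Foxp3+ arrays (10.29 and 9.47) were above both activated Foxp3- arrays (8.15 and 7.76), but all 8 genes separated these groups in one direction or the other. The test also takes in the ex vivo subset difference, which was −1.18 and not called (limma adjusted p = 0.204), beside 1.93 in activated cells. The subset is confounded with the array series in activated cells, so these cannot be told apart.

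Zap70 differed between the subsets in its polysome minus cytosolic difference after activation, by 1.85 (SE 0.56, limma adjusted p = 0.122). It was 1.57 in Foxp3+ and −0.28 in Foxp3- cells. Of the 22 alternative settings, 6 kept the call.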

How the results depend on the processing

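No called difference of the 8 genes changed sign under any setting run. Of the values of single genes under the alternatives, 2846 kept their side of the threshold, 128 lost a call and 66 gained one. With the spread taken from only the groups compared, the number of genes called was 2 of 8 for activation in Foxp3+ polysomes, 5 and 3 between ex vivo subsets in cytosolic and polysome-associated mRNA, 0 between activated subsets in cytosolic mRNA, 1 between fractions of ex vivo Foxp3- cells, 0 between fractions of activated Foxp3+ cells and 0 for differential translation in activated cells. Over all genes the same fits called 13.7%, 31.5%, 20.9%, 2.97%, 1.36%, 0% and 0%, against 29.3%, 4.64%, 3.87%, 26.0%, 0.0607%, 4.66% and 7.48% in the fit of all arrays. With array weights (0.35 to 0.63 for activated and 1.58 to 2.96 for ex vivo arrays) these were, from the ex vivo subsets on, 5 and 4, 2, 2, 0 and 0, and over all genes 32.3%, 24.9%, 8.30%, 4.04%, 0% and 0.765%. Restricted to genes above the median mean, 0 genes were called between ex vivo subsets in polysomes and 3 for differential translation in activated cells (5.63% and 11.9% of 8237 genes). Cyclic loess gave 1 call between fractions of activated Foxp3- cells and 3 for differential translation (4.03% and 7.34% of all genes), and the analysis of covariance 0 (18.1%). Leaving out each array in turn gave 2 to 5 calls for activation in Foxp3+ polysomes, 0 to 1 and 0 to 2 between ex vivo subsets in cytosolic and polysome-associated mRNA, 2 to 6 and 0 to 2 between activated subsets, 0 to 1 and 0 to 2 between fractions of activated Foxp3- and Foxp3+ cells, 0 to 3 for differential translation in activated cells, 0 to 2 and 0 to 1 for the difference in activation response in cytosolic and polysome-associated mRNA, and 0 to 1 for the change of the fraction difference in each subset. The array left alone in its group was assumed to vary like the other groups. The causes of these changes were not tested, apart from the smaller and larger spread that the first 2 settings use.

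Median centring moved the median difference over all genes by −0.14 and −0.13 between activated subsets in cytosolic and polysome-associated mRNA, and cyclic loess by −0.11 and −0.18. The share of called genes that were higher in Foxp3+ cells went from 53.2% to 37.3% and from 57.7% to 44.7% with centring, and from 44.4% to 32.0% between ex vivo subsets in cytosolic mRNA. The labels share no array number between groups, so no replicate block was fitted; only the analysis of covariance paired arrays, by consecutive numbers. Genes near the array medians, such as Cd247 ex vivo, limit how well a fold change can be measured.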

Other observations

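The 4 CD3 and zeta genes were averaged, each centred on its own mean, to a profile over the 16 arrays. Cd3d and Cd3e had a correlation of −0.93 and largely offset each other in this mean. The profile therefore does not describe a change shared by the 4 genes. Among 11266 genes with a spread at least that of the profile, the 5 genes with the highest Pearson correlation to it were Scrg1 (0.86), Txndc5 (0.84), BC025920 (0.83), Gcg (0.81) and Gm5914 (0.81). These values are a description over arrays that share state and series. In Scrg1 and Gcg the group means, 2.89 to 4.29 and 2.39 to 4.25, lay under the array medians. Txndc5, a disulfide isomerase of the endoplasmic reticulum, had its highest group mean, 9.06, in activated Foxp3+ cytosolic mRNA, and 7.24 to 7.79 in the other groups. Of the other members, Cd4 had a correlation of 0.57 with the profile, Lat −0.24, Lcp2 −0.27 and Zap70 −0.65.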
